A study of Mus musculus with 99 samples.

Results

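The 9 genes described here, Trp53, Mdm2, Cdkn1a, Ccng1, Gdf15, Cdkn2a, Cdkn2b, Cdkn2c and Cdkn1b, belong to the p53 pathway and to the families of inhibitors that hold cyclin-dependent kinases back. They were taken by symbol from the 35870 genes of the deposited count table. p53, the product of Trp53, is a transcription factor that accumulates after DNA damage and other stress. Its target Cdkn1a encodes p21, an inhibitor of cyclin-dependent kinases, and its target Mdm2 encodes the ubiquitin ligase that returns p53 to a low level. The Cdkn2a locus encodes p16Ink4a, which blocks the cyclin D kinases, and, from another first exon, p19Arf, which restrains Mdm2. Cdkn2a RNA is widely used as a marker of senescent cells and is known to increase with age in many mouse tissues.

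Polyadenylated RNA was sequenced from gastrocnemius and quadriceps, which are muscles of the hind limb, and from whole spinal cord. All mice were male C57BL/6 of wild type genotype, perfused with PBS. They were exercised at 18 months, sedentary at 18 months or sedentary at 10 months. In that order, gastrocnemius and cord each gave 13, 10 and 10 libraries and quadriceps gave 12, 9 and 10. The design text calls the 10-month mice young and the 18-month mice mid-aged, and what the exercise consisted of is not given in the sources used here. Each library bears a number such as 3.1 that recurs across tissues. The labels do not say that this number marks an animal, nor that the libraries of a group come from separate animals, so p-values measure the spread between these libraries.

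The 97 libraries held between 29.06 and 62.77 M counts. Defining markers bore out the tissue labels. The muscle actin gene Acta1 had a median of 101 TPM (transcripts scaled to gene length and to the library's total) in cord, against 43475 TPM in gastrocnemius and 43419 TPM in quadriceps. The neuronal gene Snap25 had a median of 3023 TPM in cord, against 0.989 TPM in gastrocnemius and 0.663 TPM in quadriceps. Over all genes, these libraries lay far from others of the same tissue: 10-month library 3.1 in both muscles, 10-month library 2.2 in gastrocnemius, and 18-month sedentary libraries 5.2 and 6.1 in cord. For several results that rest on them, values without them are also given.

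Positions are those of the GENCODE M21 annotation on build GRCm38. Cdkn2a (chr4:89274471-89294653) and Cdkn2b (chr4:89306299-89311039) are neighbours on the minus strand of chromosome 4, 11646 bases apart, and Cdkn2c (chr4:109660876-109667189, minus strand) is farther along the same chromosome. Cdkn1a is at chr17:29090976-29100727 on the plus strand and Cdkn1b at chr6:134920401-134925513 on the plus strand. Trp53 (chr11:69580359-69591873, plus strand) and Ccng1 (chr11:40748552-40755311, minus strand) share chromosome 11. Mdm2 is at chr10:117688875-117710758 and Gdf15 at chr8:70629393-70632456, both on the minus strand. All 9 are annotated as protein coding. Exons of Cdkn1a overlap those of AC167363.2, a transcript of class TEC on the opposite strand, over 273 of 3553 exon bases, and since the sources used here do not say that counting used strand, reads from both cannot be told apart there. No exon of the other 8 genes overlapped another gene.

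The start regions of Cdkn2a are shown because 1 gene count covers both of its products. RefSeq (GRCm38.p6) gives it 2 start windows of 250 bases before and 50 bases after a start, printed here 5′ to 3′ on the minus strand, with the 50 bases from the start in capitals.
Cdkn2a, upstream start (the Arf first exon), chr4:89294570-89294869: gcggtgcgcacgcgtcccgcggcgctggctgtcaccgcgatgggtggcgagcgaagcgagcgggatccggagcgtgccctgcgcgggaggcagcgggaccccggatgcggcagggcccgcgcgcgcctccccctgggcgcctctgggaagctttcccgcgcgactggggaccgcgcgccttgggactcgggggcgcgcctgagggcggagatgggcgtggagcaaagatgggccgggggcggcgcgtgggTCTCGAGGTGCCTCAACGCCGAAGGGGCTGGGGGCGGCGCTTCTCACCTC
Cdkn2a, downstream start (the Ink4a first exon), chr4:89282143-89282442: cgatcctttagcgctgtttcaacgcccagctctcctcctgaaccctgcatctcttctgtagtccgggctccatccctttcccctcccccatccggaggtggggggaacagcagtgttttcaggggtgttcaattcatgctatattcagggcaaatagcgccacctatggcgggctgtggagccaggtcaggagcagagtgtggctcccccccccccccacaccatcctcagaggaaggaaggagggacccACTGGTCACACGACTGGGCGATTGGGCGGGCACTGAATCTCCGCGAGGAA
The upstream window holds 45 CpG dinucleotides and the downstream window 12, where the median of the 32851 promoter windows used here is 7. A gene count adds reads from both starts, so no value of Cdkn2a given here says which product was measured.

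The p53 response element was searched by name as its full consensus site of 20 bases, read on both strands. At most 1 mismatch was allowed, and the core C and G positions had to match. Windows of 1 chromosome, which holds none of the 9 genes, were left out. The site was found in 22 of the 32851 windows (0.067%) and in windows of 2 of the 9 genes, Cdkn1a and Ccng1. Both are shown because these genes are textbook p53 targets whose levels are described next; the site is in capitals.
Cdkn1a, upstream start, plus strand, chr17:29090729-29091028: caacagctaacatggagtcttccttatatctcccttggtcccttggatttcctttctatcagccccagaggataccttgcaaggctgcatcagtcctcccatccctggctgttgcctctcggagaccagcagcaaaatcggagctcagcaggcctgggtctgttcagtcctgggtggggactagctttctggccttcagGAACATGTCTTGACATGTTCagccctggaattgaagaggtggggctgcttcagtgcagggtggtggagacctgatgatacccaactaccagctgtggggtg
Ccng1, minus strand, chr11:40755237-40755536: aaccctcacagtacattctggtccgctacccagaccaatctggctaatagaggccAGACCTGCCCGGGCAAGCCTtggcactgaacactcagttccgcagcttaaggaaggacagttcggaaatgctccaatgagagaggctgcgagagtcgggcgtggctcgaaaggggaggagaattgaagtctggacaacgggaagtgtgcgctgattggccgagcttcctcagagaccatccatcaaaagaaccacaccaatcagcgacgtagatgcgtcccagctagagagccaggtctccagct
The first base of the match lies at position -51 from the upstream start of Cdkn1a and at -195 from the start of Ccng1. A match of letters is a description and not evidence of binding, and the search says nothing about windows farther from a start. The search was chosen after the windows had been seen.

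Levels per length of transcript differed widely among the 9 genes and between cord and muscle. Ccng1, which encodes cyclin G1, was the most abundant of the 9 in muscle, with a median of 46.0 TPM in cord, against 617 TPM in gastrocnemius and 611 TPM in quadriceps. Cdkn1b, which encodes the kinase inhibitor p27, was the most abundant in cord, with a median of 60.4 TPM, against 21.9 TPM in gastrocnemius and 19.9 TPM in quadriceps. Cdkn1a followed in cord at 49.7 TPM, against 20.7 TPM in gastrocnemius and 18.4 TPM in quadriceps. Trp53 had medians of 35.8 TPM in cord, 16.3 TPM in gastrocnemius and 13.9 TPM in quadriceps, and Mdm2 had 19.2, 17.1 and 14.4 TPM in the same order of tissues.

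The Ink4 genes were lower. Cdkn2c, which encodes the cyclin D kinase inhibitor p18Ink4c, had a median of 2.12 TPM in cord, against 13.8 TPM in gastrocnemius and 10.7 TPM in quadriceps. Cdkn2b, which encodes the related p15Ink4b, had medians of 2.05 TPM in cord, 2.73 TPM in gastrocnemius and 2.79 TPM in quadriceps. Cdkn2a had 1.09 TPM in cord, 0.361 TPM in gastrocnemius and 0.595 TPM in quadriceps. Gdf15, a secreted stress cytokine of the TGF-beta family and a known p53 target, was lowest in cord and muscle alike, with medians of 0.244, 0.21 and 0.157 TPM in cord, gastrocnemius and quadriceps. Gdf15 did not pass the low-count filter in any tissue, so 8 of the 9 genes were tested.

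**Figure D1:**
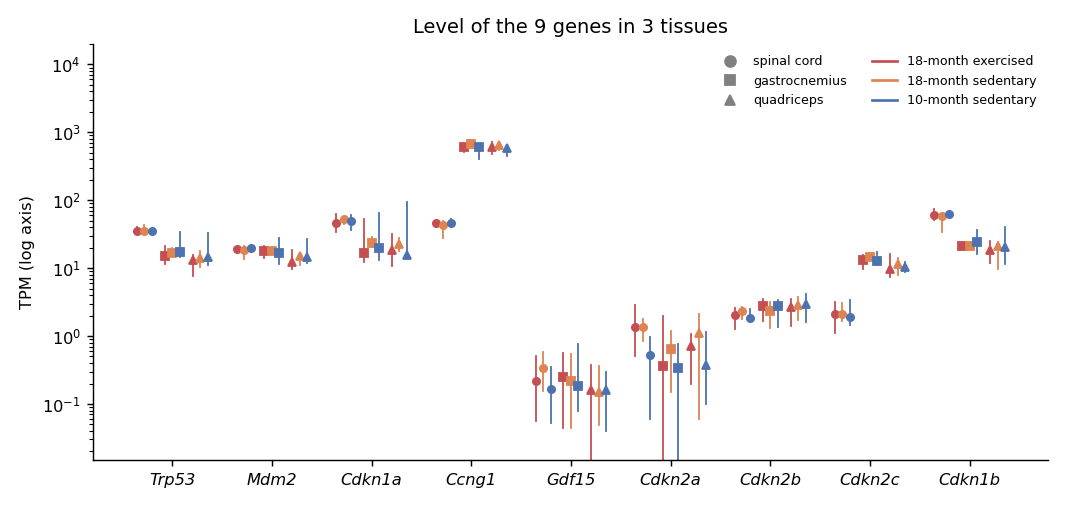
Level of each of the 9 genes in TPM on a log axis; circles are spinal cord, squares gastrocnemius and triangles quadriceps, coloured by group. Symbols are group medians and lines run from the lowest to the highest library, reaching the foot of the axis where a library had no count. Ccng1 has medians of 46.0 TPM in cord, 617 TPM in gastrocnemius and 611 TPM in quadriceps, and Gdf15 and Cdkn2a lie lowest.

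When the 9 groups were ordered by mean TPM, the cord groups and the muscle groups separated beyond the summed standard deviations (SD) for Ccng1, Cdkn2c, Trp53 and Cdkn1b. Neighbouring groups of the same tissue did not separate in this way for any of the 9 genes, nor did any neighbours for the other 5. For Cdkn2a the order ran from cord at 18 months exercised (1.38 ± 0.63 TPM, SD, n = 13) and sedentary (1.33 ± 0.31 TPM, SD, n = 10) through quadriceps at 18 months sedentary (1.16 ± 0.69 TPM, SD, n = 9) down to gastrocnemius at 10 months (0.348 ± 0.214 TPM, SD, n = 10), each within the spread of the next.

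Tested at 10 months, cord minus the mean of both muscles, 7 of the 8 genes were called, which here and throughout means an adjusted p (Benjamini-Hochberg, over all genes tested) under 0.05 in edgeR's quasi-likelihood test on TMM-scaled counts. Over all 19735 genes 92.1% were called (53.9% higher and 38.2% lower), so this count is no result about the 8 genes. Ccng1 was lower in cord by the widest margin, with a log2 fold change of -5.15 ± 0.09 (SE), equal to 35.6-fold higher in muscle (adjusted p = 3.23e-76). Cdkn2c was lower in cord with a log2 fold change of -4.04 ± 0.12 (SE), 16.5-fold higher in muscle (adjusted p = 7.28e-55), and Cdkn2b with -2.06 ± 0.13 (SE), 4.16-fold higher in muscle (adjusted p = 4.85e-28). These 3 kept their direction and their call when libraries were scaled by total counts alone, but their size varied. Over 5 alternatives, totals alone among them, the log2 fold change ran from -5.32 to -4.01 for Ccng1. For Cdkn2c it ran from -4.12 to -2.90 and for Cdkn2b from -2.23 to -0.92. Scaling by totals alone, an alternative added after the data were seen, moved the median log2 fold change of all genes to 1.54, against 0.40 with TMM factors. In the other 5 genes the direction or the call depended on the scaling. Trp53 was at -0.47 with TMM factors and at 0.67 on totals alone, called on both scales in opposite directions. Cdkn1a was at -0.45 (adjusted p = 0.0141) with TMM factors and at 0.68 on totals alone, and Cdkn1b at -0.05 and 1.08. Mdm2 was at -1.25 with TMM factors and at -0.11 (adjusted p = 0.0986) on totals alone, and Cdkn2a at -1.03 and 0.09 (adjusted p = 0.819). Whether these 5 genes are higher in cord or in muscle therefore cannot be stated apart from the scaling.

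Between the muscles, taken as the mean over all 3 groups of each, the differences were small. In gastrocnemius minus quadriceps, 4 of the 8 genes were called, where 40.8% of 15433 genes were, so the count again says nothing particular about them. On the log2 scale, Cdkn2c was higher in gastrocnemius by 0.20 ± 0.05 (SE, adjusted p = 9.04e-04) and Mdm2 by 0.16 ± 0.04 (SE, adjusted p = 0.00171). Cdkn2b was lower with -0.28 ± 0.08 (SE, adjusted p = 0.00645), and Ccng1 was at -0.13 ± 0.04 (SE, adjusted p = 0.013), a call lost on totals alone (-0.05, adjusted p = 0.22). Cdkn2a was at -0.59 ± 0.25 (SE, adjusted p = 0.0544) and Trp53 at 0.11 ± 0.06 (SE, adjusted p = 0.104). With the library number as a replicate block both were called, Cdkn2a at -0.66 (edgeR adjusted p = 0.00377) and Trp53 at 0.12 (edgeR adjusted p = 0.00613), and Trp53 was also called on totals alone and without the libraries standing apart.

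With age, Cdkn2a rose in the spinal cord of sedentary mice. At 18 months the 10 sedentary cord libraries had 0.852 TPM at the lowest, 1.35 TPM at the median and 1.81 TPM at the highest, against 0.06, 0.518 and 0.953 TPM in the 10 sedentary libraries of 10 months. On the scaled counts, 8 of 10 libraries of 18 months lay above the highest library of 10 months, and all 10 above the 10-month median, so the groups barely overlapped. The change was 1.33 ± 0.30 on the log2 scale (SE), or 2.52-fold with a 95% interval of 0.75 to 1.92 on the log2 scale (edgeR adjusted p = 0.0084). Counts were few, from 1 to 14 reads per library at 10 months and from 13 to 32 at 18 months. In whole tissue, fewer cells of a type and less RNA per cell cannot be told apart, and the same holds for more cells and more RNA.

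Cdkn2a was the only 1 of the 8 tested genes called with age in cord, where 5.35% of 18956 genes were called (2.82% higher and 2.53% lower), so the count is a result about Cdkn2a and not about the 8 genes as a set. The call held when each of the 33 cord libraries was left out in turn, with log2 fold changes between 1.19 and 1.47 and adjusted p between 0.00454 and 0.0196. Without libraries 5.2 and 6.1 it also held, and over the alternatives with an adjusted p the values ran from 1.26 to 1.45 and the adjusted p from 0.00395 to 0.026. DESeq2 gave 1.35 ± 0.29 (SE) with an unadjusted p of 3.04e-06 and no adjusted p.

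With exercise, Cdkn2a in cord showed no difference that passed the test. The 13 exercised cord libraries had 0.504 TPM at the lowest, 1.34 TPM at the median and 2.89 TPM at the highest, against 0.852, 1.35 and 1.81 TPM in the sedentary ones. The exercised libraries spread on both sides of the sedentary ones. Between them the log2 fold change was 0.02 ± 0.24 (SE, edgeR adjusted p = 0.979), with a 95% interval of -0.46 to 0.49 that leaves room for modest differences either way. Against the 10-month sedentary libraries the exercised ones were higher by a log2 fold change of 1.35 ± 0.28 (SE, edgeR adjusted p = 0.00737), and 10 of 13 lay above the highest 10-month library. That comparison had 1 of 8 genes called where 1.51% of all genes were (0.981% higher and 0.528% lower), and it shares libraries with both others, so it is no independent test.

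**Figure D2:**
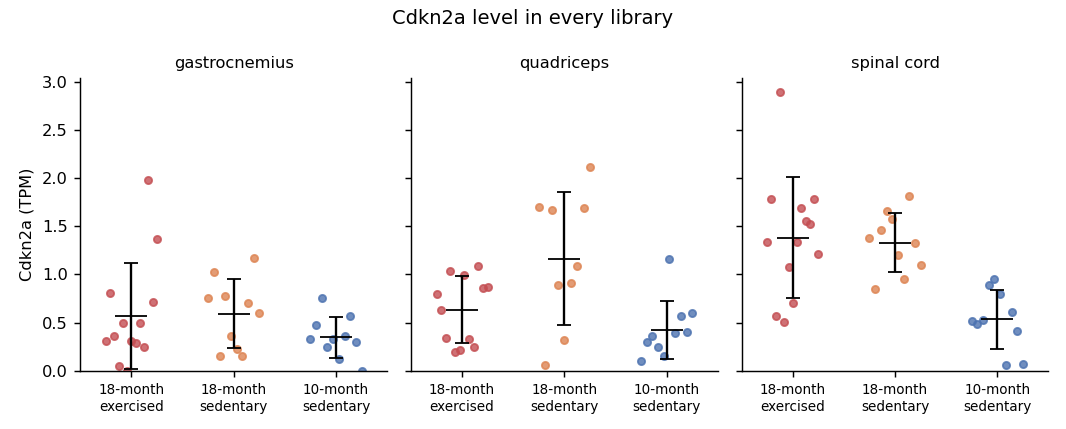
Cdkn2a in TPM in every library of gastrocnemius, quadriceps and spinal cord, with exercised 18-month, sedentary 18-month and sedentary 10-month libraries from left to right in each panel. Bars are the mean ± SD. In cord the 18-month libraries centre on 1.38 and 1.33 TPM and the 10-month ones on 0.532 TPM, while the muscle groups overlap widely.

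In quadriceps the fitted change of Cdkn2a with age was close to that in cord but did not pass the test. The 9 sedentary libraries of 18 months ran from 0.061 through a median of 1.09 to 2.12 TPM (lowest, median and highest, in this order from here on), against 0.099, 0.38 and 1.16 TPM in the 10 libraries of 10 months. The 18-month libraries spread over the whole 10-month range and beyond it, with 4 of 9 above the highest. The log2 fold change was 1.38 ± 0.39 (SE, edgeR adjusted p = 0.118). It did pass with limma's quality-weighted voom fit (1.65, adjusted p = 0.00973) and without 18-month sedentary library 5.2 (1.52, edgeR adjusted p = 0.0355), the library with the lowest value of all, at 1 read.

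In quadriceps of exercised mice Cdkn2a was at 0.198 TPM at the lowest, 0.716 TPM at the median and 1.08 TPM at the highest. Of the 12 exercised libraries, 11 lay below the median of the sedentary 18-month libraries, though all lay within their range. The log2 fold change of exercised against sedentary was -0.77 ± 0.35 (SE, edgeR adjusted p = 0.383) and that against 10 months was 0.61 ± 0.39 (SE, edgeR adjusted p = 0.314). Neither passed the threshold.

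Gastrocnemius had the lowest median of Cdkn2a. Exercised libraries ran from 0 through 0.359 to 1.98 TPM, sedentary libraries of 18 months from 0.149 through 0.651 to 1.17 TPM and those of 10 months from 0 through 0.334 to 0.752 TPM. The groups overlapped over most of their range. With age the log2 fold change was 0.76 ± 0.49 (SE, edgeR adjusted p = 0.627) and that with exercise -0.01 ± 0.43 (SE, edgeR adjusted p = 0.994). The age change was not shown to differ between tissues: cord minus the muscles it was 0.23 ± 0.48 (SE, edgeR adjusted p = 0.847), with a 95% interval of -0.71 to 1.17, and gastrocnemius minus quadriceps -0.63 ± 0.66 (SE, edgeR adjusted p = 1.0). None of the 8 genes was called in the edgeR test of cord minus muscles for ageing, where 2.61% of genes were called and 2 of the 8, Cdkn2b and Ccng1, had an unadjusted p under 0.05. Ccng1 was at -0.30 ± 0.09 (SE, adjusted p = 0.0536) and passed in 3 of 5 alternatives: the replicate block (-0.32, adjusted p = 0.0122), DESeq2 (-0.29, adjusted p = 0.0362) and totals alone (-0.27, adjusted p = 0.0392). Without the libraries standing apart it was -0.16 (adjusted p = 0.356). None was called for exercise, where 0.887% of genes were called and Ccng1 had an unadjusted p under 0.05. Gastrocnemius minus quadriceps had 0 of 15433 genes called by edgeR in the ageing test, with 232 at an unadjusted p under 0.05. In the exercise test 0 were called, with 357 under that unadjusted p, and DESeq2 called 0 in both. The edgeR fit counts same-numbered muscle libraries as independent, although they resembled each other over all genes. An absent call therefore does not show that the muscles respond alike.

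Known regulators of the Cdkn2a locus were looked at in the same cords. Of 15 such genes, which include Polycomb subunits and the factors that activate either start, 0 rose and 2 fell with age, beside 2.82% of all genes higher and 2.53% lower, and counts this small say nothing particular about the list. Dmtf1, whose product activates the Arf start, had a log2 fold change of -0.22 ± 0.06 (SE, edgeR adjusted p = 0.0204), and Ets2, which activates the Ink4a start, -0.10 ± 0.03 (SE, edgeR adjusted p = 0.0485). Without libraries 5.2 and 6.1 neither was called. Ets2 also fell in exercised mice against 10-month mice (-0.12 ± 0.03, SE, edgeR adjusted p = 0.0206).

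Genes of the secretory programme of senescent cells rose with age in cord beside Cdkn2a. Of 36 listed, 29 were tested, 10 rose and 0 fell, beside 2.82% of all genes higher and 2.53% lower, with a median log2 fold change of 0.37 over the 29 genes, against 0.0069 over all genes. The chemokine gene Ccl3 rose by 1.91 ± 0.16 (log2, SE, edgeR adjusted p = 8.17e-10) and Ccl4 by 1.51 ± 0.18. Mmp12, macrophage elastase, rose by 3.105 ± 0.36, and Plau, the urokinase gene, by 0.57 ± 0.09. Cxcl10, Timp1, Tnf, Tgfb1 and Ccl2 were also among those that rose. Over the alternatives between 8 and 14 of the list rose, with 8 without libraries 5.2 and 6.1.

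Many of these factors are also products of activated microglia, and microglial markers moved in the same comparison. Of 11 microglia and macrophage markers 7 rose, and of 10 markers of activated microglia 7 rose. Beside them, 2.82% of all genes were higher and 2.53% lower. The median log2 fold change was 0.40 over the first list and 1.06 over the second, against 0.0069 over all genes. The sums that follow weigh the most abundant markers most. The summed level of the activated markers ran from 3223 to 4136 TPM in exercised cords and from 3533 to 4489 TPM in sedentary 18-month cords, against 2798 to 3442 TPM in 10-month cords. The summed microglia and macrophage markers ran from 514 to 655 TPM in exercised cords, from 576 to 685 TPM in sedentary 18-month cords and from 403 to 748 TPM in 10-month cords, where library 3.1 was highest. Among sedentary 18-month cords, library 5.2 was highest in both sums. Markers of other cell types were also called. Of 6 tested T cell markers 2 rose, Cd8a by 1.60 ± 0.34 (log2, SE, edgeR adjusted p = 0.005) and Cd8b1 by 1.201 ± 0.34 (adjusted p = 0.0336), and the summed T cell markers ran from 1.68 to 6.54 TPM in exercised cords and from 2.799 to 6.35 TPM in sedentary 18-month cords, against 1.46 to 4.51 TPM in 10-month cords. Of 5 astrocyte markers Gfap rose by 0.42 ± 0.06 (adjusted p = 8.58e-06), with a list median of -0.11. No marker of the microglial, T cell or astrocyte lists was at 0 in all libraries of a group. The part of any of these cells in the rise of Cdkn2a or of the secretory genes was not tested. With exercise 0 of the 29 secretory genes were called, and in that edgeR comparison 0 of 18956 genes were (2565 at an unadjusted p under 0.05, and 0 with DESeq2). Exercised against 10-month cords, 7 of the 29 rose and 1 fell, beside 0.981% of all genes higher and 0.528% lower. The 1 that fell was Mmp9, with -0.23 ± 0.06 (log2, SE, edgeR adjusted p = 0.0374).

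Trp53 itself changed in 1 of the 9 within-tissue comparisons. In quadriceps, the 12 exercised libraries of 18 months had 7.62 TPM at the lowest, 13.2 TPM at the median and 15.8 TPM at the highest, against 11.2, 14.8 and 33.4 TPM in the 10 sedentary libraries of 10 months. On the scaled counts 7 of 12 exercised libraries lay below the lowest 10-month library. This was a log2 fold change of -0.34 ± 0.10 (SE), or 0.791-fold, with an edgeR adjusted p of 0.0242. It was 1 of 8 genes called where 11.1% of 14790 genes were (5.76% higher and 5.38% lower). The call rested on few libraries: without 10-month library 3.1, the highest of all, it was -0.19 (adjusted p = 0.0527), and without exercised library 8.3 it was -0.29 (adjusted p = 0.0514).

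The quadriceps libraries of sedentary 18-month mice lay between these groups, at 10.34 through 14.3 to 18.0 TPM of Trp53. Neither comparison with them passed: exercise gave -0.17 ± 0.10 (log2, SE, edgeR adjusted p = 0.566) and ageing -0.17 ± 0.11 (SE, edgeR adjusted p = 0.537). With single libraries left out in turn, the age change ran from -0.20 to -0.03. In gastrocnemius the exercised libraries had 11.6 through 14.9 to 20.9 TPM, the sedentary 18-month libraries 14.97 through 16.7 to 19.6 TPM and the 10-month libraries 14.4 through 17.2 to 34.0 TPM. All overlapped, and exercised against 10 months gave -0.23 ± 0.09 (log2, SE, edgeR adjusted p = 0.108). With single gastrocnemius libraries left out in turn, that change ran from -0.26 to -0.11. In cord Trp53 lay between 32.4 and 43.9 TPM in all 33 libraries, with an age change of 0.07 ± 0.04 (log2, SE, edgeR adjusted p = 0.257).

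Mdm2, the antagonist and target of p53, was not called in any of the 9 comparisons. Its group medians lay between 18.6 and 19.7 TPM in cord, between 16.8 and 17.9 TPM in gastrocnemius and between 12.4 and 15.1 TPM in quadriceps. In cord 5 of 10 sedentary libraries of 18 months lay below the lowest of 10 months on the scaled counts, and the log2 fold change with age was -0.09 ± 0.03 (SE, edgeR adjusted p = 0.0996). Over 6 alternative fits that change ran from -0.09 to -0.04. In muscle the age change was 0.02 ± 0.07 in gastrocnemius and -0.08 ± 0.08 in quadriceps (log2, SE, edgeR adjusted p = 0.955 and 0.724).

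Cdkn1a was not called in any of the 9 comparisons, and in muscle its values turned on single libraries. In quadriceps the exercised libraries had 10.9 through 18.4 to 31.3 TPM, the sedentary 18-month libraries 18.2 through 22.6 to 27.8 TPM and the 10-month libraries 14.0 through 15.5 to 92.8 TPM. All 9 sedentary libraries of 18 months lay above the 10-month median, while library 3.1 stood far above every other library. The log2 fold change with age was -0.02 ± 0.25 (SE, edgeR adjusted p = 0.984) with that library and 0.48 ± 0.12 (SE, edgeR adjusted p = 0.0626) without it. DESeq2 gave 0.44 (adjusted p = 0.0525) and the quality-weighted voom fit 0.49 (adjusted p = 0.00427), both with all libraries. Exercise against sedentary gave -0.23 ± 0.24 (SE, edgeR adjusted p = 0.801), with 10 of 12 exercised libraries below the sedentary median.

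In gastrocnemius, too, library 3.1 had the most Cdkn1a. Unlike in quadriceps, the exercised median lay below that of 10 months. Exercised libraries had 12.4 through 16.5 to 53.3 TPM, sedentary 18-month libraries 20.5 through 23.7 to 28.3 TPM and 10-month libraries 13.04 through 19.8 to 65.7 TPM. All 10 sedentary libraries of 18 months lay above the 10-month median, and 10 of 13 exercised libraries lay below the lowest of them on the scaled counts. The log2 fold changes were -0.08 ± 0.22 with age (SE, edgeR adjusted p = 0.932) and -0.25 ± 0.20 with exercise (SE, edgeR adjusted p = 0.622), with exercised library 8.4 and 10-month library 3.1 at the top. Without libraries 3.1 and 2.2 the age change was 0.20 (adjusted p = 0.816).

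In cord Cdkn1a had 33.7 through 46.8 to 63.4 TPM in exercised libraries, 44.2 through 52.5 to 56.6 TPM in sedentary libraries of 18 months and 35.9 through 49.97 to 61.5 TPM in those of 10 months. All 3 groups overlapped. With age the log2 fold change was 0.08 ± 0.09 (SE, edgeR adjusted p = 0.593), and with exercise -0.20 ± 0.09 (SE, edgeR adjusted p = 0.368).

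Ccng1, whose product recruits a phosphatase to Mdm2, was called in none of the 9 comparisons either. In gastrocnemius the sedentary libraries of 18 months had 608 through 667 to 766 TPM, against 402 through 614 to 676 TPM at 10 months, and all 10 lay above the 10-month median. The log2 fold change was 0.17 ± 0.06 (SE, edgeR adjusted p = 0.279). Exercised gastrocnemius libraries had 515 through 603 to 669 TPM, and 11 of 13 lay below the sedentary median, with a log2 fold change of -0.12 ± 0.05 (SE, edgeR adjusted p = 0.326). In cord the direction with age was the opposite, at -0.15 ± 0.06 (SE, edgeR adjusted p = 0.134), from 27.3 through 43.0 to 50.1 TPM in sedentary libraries of 18 months, against 42.3 through 46.4 to 53.6 TPM at 10 months. Library 5.2 was far the lowest of these on the scaled counts. Over 6 alternative fits the cord change ran from -0.15 to -0.06.

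Gdf15 was detected in all but 1 of the 97 libraries, at few reads each. In cord the exercised libraries had 0.057 through 0.218 to 0.514 TPM and the sedentary libraries of 18 months 0.153 through 0.341 to 0.582 TPM, against 0.052 through 0.169 to 0.348 TPM at 10 months. On the scaled counts 6 of 10 sedentary libraries of 18 months lay above the highest of 10 months. Without the filter on low counts, the log2 fold change with age in cord was 0.89 ± 0.34 (SE, edgeR adjusted p = 0.148), and none of the 9 comparisons passed. Muscle medians of Gdf15 lay between 0.152 and 0.246 TPM over the 6 groups.

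Cdkn2b, the neighbour of Cdkn2a, was not called in any within-tissue comparison. In cord it had 1.78 through 2.36 to 2.64 TPM in sedentary libraries of 18 months, against 1.67 through 1.88 to 2.54 TPM at 10 months. The groups overlapped, with 9 of 10 above the 10-month median, and the log2 fold change was 0.30 ± 0.11 (SE, edgeR adjusted p = 0.0928). Exercised cord libraries had 1.29 through 2.07 to 2.59 TPM, with a log2 fold change of -0.18 ± 0.10 against sedentary ones (SE, edgeR adjusted p = 0.395). In the muscles the age change was -0.12 ± 0.16 in gastrocnemius and -0.05 ± 0.14 in quadriceps (log2, SE, edgeR adjusted p = 0.843 and 0.918).

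Cdkn2c and Cdkn1b were likewise called in none of the 9. Cdkn2c had age changes of 0.20 ± 0.16 in cord, 0.13 ± 0.09 in gastrocnemius and 0.10 ± 0.09 in quadriceps (log2, SE), with edgeR adjusted p of 0.419, 0.625 and 0.695. Its exercise changes were -0.08 ± 0.15, -0.15 ± 0.08 and -0.15 ± 0.09 in the same tissues. Cdkn1b had age changes of -0.11 ± 0.07 in cord, -0.17 ± 0.07 in gastrocnemius and -0.11 ± 0.11 in quadriceps, with edgeR adjusted p of 0.351, 0.362 and 0.728. Cord library 5.2 had far the least Cdkn1b of its group, and over 6 alternative fits the cord change ran from -0.11 to -0.04. In gastrocnemius all 10 sedentary libraries of 18 months had less Cdkn1b than the 10-month median, within the 10-month range but for 1.

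Counted by comparison, 0 of 8 genes were called by edgeR with age in gastrocnemius, where 0.153% of 15027 genes were called and 1479 had an unadjusted p under 0.05, among them Cdkn1b and Ccng1. With age in quadriceps it was 0 of 8 beside 0.352% of genes, with Cdkn2a alone under an unadjusted p of 0.05, and the voom fit called 2. With exercise it was 0 of 8 in gastrocnemius beside 0.106% of genes (Ccng1 under an unadjusted p of 0.05), 0 of 8 in quadriceps beside 0.757% (Cdkn2a) and 0 of 8 in cord beside 0% (Cdkn1a). Exercised against 10-month gastrocnemius gave 0 of 8 beside 6.73% of genes (3.43% higher and 3.3% lower), with Trp53 and Cdkn1b under an unadjusted p of 0.05, and the voom fit called 1. DESeq2 called 0 of 8 in these 6 comparisons.

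**Figure D3:**
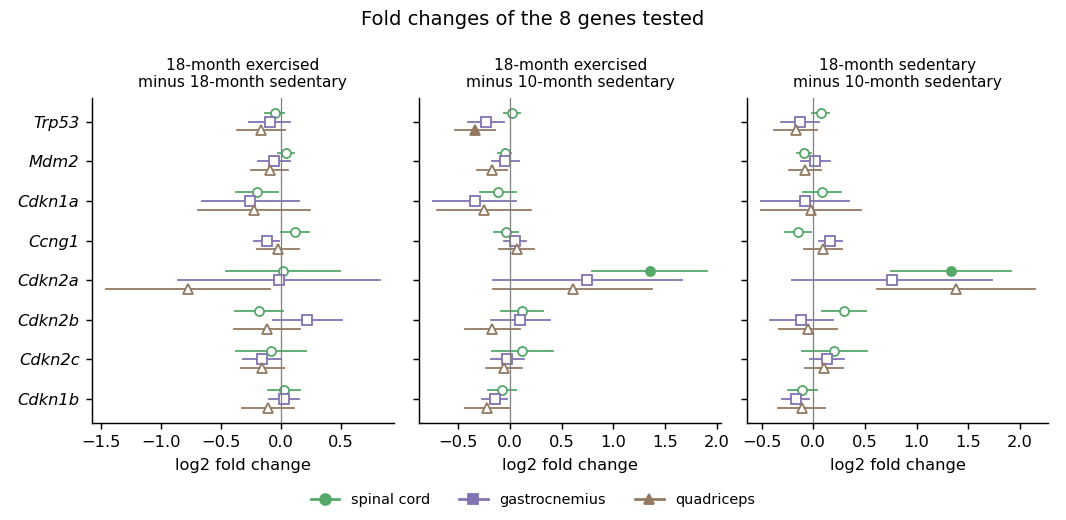
Log2 fold changes of the 8 genes tested in 3 comparisons, with spinal cord as circles, gastrocnemius as squares and quadriceps as triangles. Lines are 95% intervals and filled symbols mark an edgeR adjusted p under 0.05. The filled symbols are Cdkn2a in cord (1.33 with age, 1.35 for exercised against 10-month mice) and Trp53 in quadriceps (-0.34 for exercised against 10-month mice).

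Other p53 targets, 34 genes listed beside the 9, were called about as often as all genes with age in cord. Of 34, 2 rose and 1 fell, beside 2.82% of all genes higher and 2.53% lower. Bbc3, which encodes the apoptosis inducer Puma, rose by 0.30 ± 0.09 (log2, SE, edgeR adjusted p = 0.0477), and Xpc, a DNA damage sensor, by 0.15 ± 0.04 (adjusted p = 0.0432), while Zmat3, an RNA-binding protein gene, fell with -0.18 ± 0.05 (adjusted p = 0.0348). The median over the 34 was 0.02, against 0.0069 over all genes, and none was called without libraries 5.2 and 6.1. In muscle 0 of 32 in gastrocnemius and 0 of 30 in quadriceps were called with age, and 0 with exercise in any tissue (edgeR). With the voom fit 3 were called with age in quadriceps and 1 with exercise in each muscle, and DESeq2 called 2 with age in quadriceps.

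Most calls on this list came from exercised against 10-month muscle, where most calls over all genes in muscle also lay (11.1% of genes in quadriceps and 6.73% in gastrocnemius), so their number is no result about p53 targets. In quadriceps 3 of 30 rose and 2 fell. Tigar, which lowers glycolysis, fell with a log2 fold change of -0.43 ± 0.06 (SE, edgeR adjusted p = 2.09e-05) and Phlda3, an Akt inhibitor gene, with -0.67 ± 0.14. The receptor kinase gene Epha2 (0.50 ± 0.12), Trp53inp1 (0.36 ± 0.09) and the kinase gene Plk2 (0.41 ± 0.11) rose. In gastrocnemius 2 of 32 rose, Plk2 (0.38 ± 0.10) and Trp53inp1 (0.32 ± 0.10), and 3 fell, Tigar (-0.29 ± 0.07), Phlda3 (-0.53 ± 0.13) and the nuclease gene Aen (-0.14 ± 0.04). Members of the list thus moved in both directions, with medians of -0.03 in quadriceps and 0.04 in gastrocnemius. Without library 3.1 the quadriceps count was 4 higher and 2 lower, and without libraries 3.1 and 2.2 the gastrocnemius count was 0 higher and 1 lower.

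Cell cycle genes were called in small numbers, to be read against 5.35% of all genes in cord with age and 11.1% and 6.73% in exercised against 10-month quadriceps and gastrocnemius. In cord with age 2 of 19 other cyclin and kinase genes rose, Ccnd3 (0.20 ± 0.06) and E2f1 (0.19 ± 0.05). Of 20 proliferation genes 1 was called, Mcm2, which rose (0.17 ± 0.05, log2, SE). None was called without libraries 5.2 and 6.1. The fitted change was upward in 18 of the 20 proliferation genes, with a median of 0.17, against 0.0069 over all genes. Among the 19 cyclin and kinase genes it was upward in 10, with a median of 0.04. Of 19 regulators of p53, 0 were called in cord with age by edgeR. In quadriceps, exercised against 10 months, E2f2 (1.13 ± 0.17), Cdk6 (0.47 ± 0.14), Rrm2 (0.72 ± 0.19) and Birc5 (0.87 ± 0.26) rose, and E2f3 (-0.29 ± 0.08), the p53 coactivator gene Ep300 (-0.30 ± 0.08) and the Polycomb gene Eed (-0.27 ± 0.06) fell. In gastrocnemius of the same comparison E2f2 (0.66 ± 0.20) and the secretory factor gene Igfbp3 (0.34 ± 0.10) rose and E2f4 (-0.34 ± 0.10) fell.

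Among 10-month libraries, 3.1 had the most Trp53, Cdkn1a and Mdm2 in both muscles. It was picked out for its values, so these are a description with no test. In quadriceps it had 92.8 TPM of Cdkn1a, where the other nine 10-month libraries had 14.0 to 19.5 TPM, and in gastrocnemius 65.7 TPM, where the others had 13.04 to 41.6 TPM. It had 33.4 TPM of Trp53 in quadriceps, where the others had 11.2 to 18.0 TPM, and 34.0 TPM in gastrocnemius, where the others had 14.4 to 18.2 TPM. Mdm2 was also highest there, at 26.7 TPM in quadriceps and 28.1 TPM in gastrocnemius. In log2 CPM it exceeded the median of the other nine by 2.32 for Cdkn1a, 1.04 for Trp53, 0.68 for Mdm2 and 0.82 for Cdkn1b in quadriceps, and by 1.67, 0.87, 0.65 and 0.51 in gastrocnemius.

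Not all p53 targets went along. Ccng1 was below all other 10-month libraries, by -0.62 in quadriceps and -0.35 in gastrocnemius, and so was Cdkn2b, by -1.13 and -1.07 (log2 CPM). Of the 8 genes, 4 lay above and 2 below all other libraries in quadriceps, and 5 above and 2 below in gastrocnemius. Over all genes 35.3% lay above and 34.2% below in quadriceps, and 30.5% and 30.1% in gastrocnemius, so the library differed at large. In the cord library of the same number 1 of the 8 genes lay above the others, Cdkn2c by 0.80 (log2 CPM), and 12.9% of all genes did.

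Other lists were read in library 3.1 against these shares. Of the other p53 targets 14 of 30 in quadriceps and 10 of 32 in gastrocnemius lay above all other 10-month libraries, which is 46.7% beside 35.3% of all genes and 31.2% beside 30.5%, so in gastrocnemius the count is that of all genes. The receptor gene Eda2r exceeded their median by 3.26 in quadriceps and 3.08 in gastrocnemius (log2 CPM), and the growth arrest gene Gadd45a by 2.86 and 2.64. Of the genes that respond to glucocorticoids and FoxO factors 14 of 18 in quadriceps and 15 of 18 in gastrocnemius lay above, among them the muscle ubiquitin ligase genes Fbxo32 (3.2 and 2.8) and Trim63 (3.41 and 2.56). Both tested neutrophil markers were above, with medians of 4.89 and 4.31, and all 6 fibroblast markers below. In the cord library numbered 3.1, 10 of 11 microglia and macrophage markers and 14 of 18 genes of the glucocorticoid and FoxO response lay above the others. So did 14 of 20 proliferation genes and 4 of 6 neutrophil markers, beside 12.9% of all genes. The part of any of these in the level of Cdkn1a or Trp53 was not tested.

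**Figure D4:**
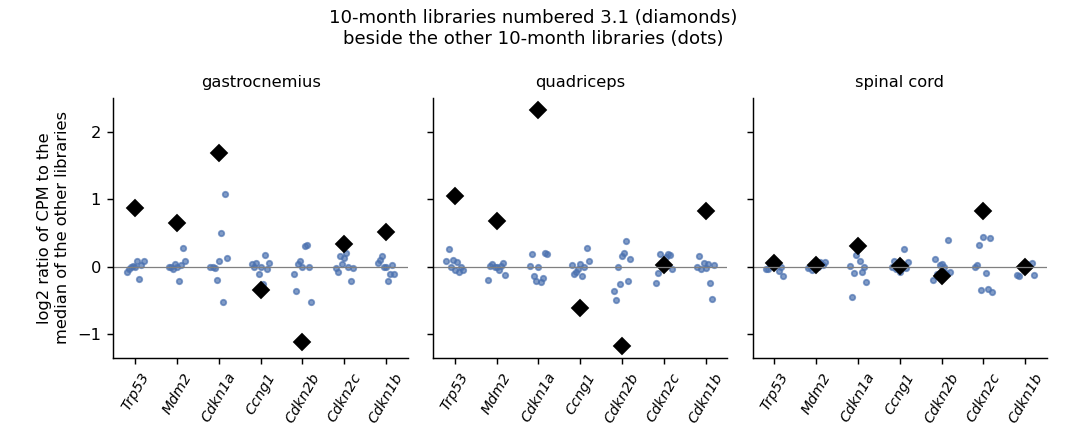
Log2 ratio of CPM to the median of the other nine 10-month libraries for 7 genes in gastrocnemius, quadriceps and spinal cord; diamonds are the libraries numbered 3.1 and dots the other libraries. Cdkn1a stands 1.67 above in gastrocnemius and 2.32 in quadriceps, Ccng1 and Cdkn2b lie below, and in cord the diamonds stay near the dots apart from Cdkn2c at 0.80.

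Across libraries, with group means removed, the p53 targets varied together only in part. Cdkn1a with Mdm2, Ccng1 and Gdf15, and Mdm2 with Ccng1, gave 12 relations over the 3 tissues, with two-sided p-values from permutations within groups adjusted over all 12, and 4 passed. Cdkn1a and Mdm2 correlated in gastrocnemius (r = 0.665, rho = 0.463, adjusted permutation p of r = 0.00948, n = 33) and in quadriceps (r = 0.763, rho = 0.525, adjusted permutation p of r = 0.0244, n = 31). Without the 2 farthest libraries r was 0.365 in gastrocnemius (3.1 and 8.4) and 0.372 in quadriceps (3.1 and 6.3), so much of each relation rested on those libraries. In cord the same pair had r = -0.297 (rho = -0.311, adjusted permutation p = 0.132, n = 33).

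Cdkn1a and Ccng1 were inversely related in gastrocnemius (r = -0.506, rho = -0.275, adjusted permutation p of r = 0.0297 and of rho = 0.227), with r of -0.201 without libraries 3.1 and 8.4. Mdm2 and Ccng1 were related in cord (r = 0.595, rho = 0.501, adjusted permutation p of r = 0.0297), with r of 0.327 without libraries 6.1 and 5.2. The other 8 relations did not pass.

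Same-numbered libraries of the muscles resembled each other in several of these genes. Each of the 9 genes was compared in 3 pairs of tissues, which gave 27 relations, and 5 passed, all between gastrocnemius and quadriceps (n = 31). Cdkn1a had r = 0.746 and rho = 0.69 (adjusted permutation p of r = 0.00108), and r was 0.475 without libraries 3.1 and 8.4. Cdkn1b had r = 0.637 (adjusted permutation p = 0.0152), Cdkn2b 0.593 (0.0152), Mdm2 0.655 (0.0489) and Ccng1 0.499 (0.0489), and without the 2 farthest libraries these were 0.493, 0.348, 0.336 and 0.322. By rho, Cdkn1a alone passed (adjusted permutation p = 0.00081). No relation between tissues passed on log2 TPM, and fewer passed without the libraries standing apart. Cdkn2a had r = 0.389 (adjusted permutation p = 0.124). None of the 18 relations with cord passed.

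**Figure D5:**
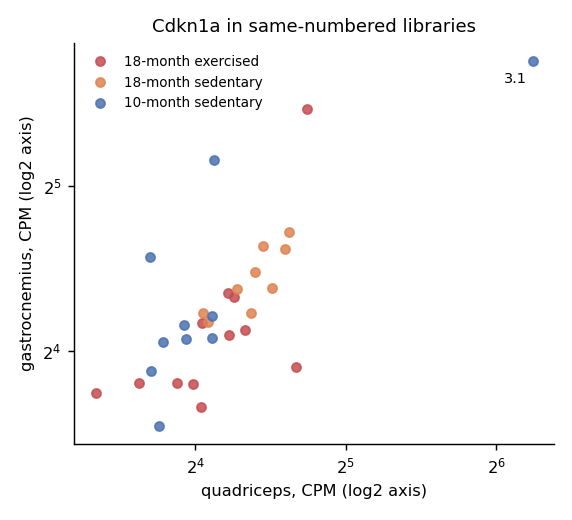
Cdkn1a in same-numbered libraries, quadriceps on the x axis and gastrocnemius on the y axis, both in CPM on log2 axes; colours are the groups. The 31 pairs run along the diagonal (r = 0.746 with group means removed, 0.475 without libraries 3.1 and 8.4). Library 3.1 is the far point at the upper right.

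The genes whose deviations from the group means were most like those of Cdkn1a were sought in each tissue. Their r in the other tissues was not compared, so different names do not show that the tissues differ. In quadriceps they were Fam8a1 (r = 0.914, rho = 0.699), Eda2r (r = 0.907, rho = 0.661) and Npm1 (r = 0.904, rho = 0.667) over 31 libraries, with r of 0.691, 0.655 and 0.703 without libraries 3.1 and 6.3. In gastrocnemius they were Bex1 (r = 0.867, rho = 0.758), Atg13 (r = 0.842, rho = 0.614) and Nfkb2 (r = 0.836, rho = 0.597) over 33 libraries. Without libraries 3.1 and 8.4 their r was 0.744, 0.635 and 0.592. In cord they were Myl9 (r = 0.884, rho = 0.795), Lims2 (r = 0.872, rho = 0.824) and Vwa1 (r = 0.869, rho = 0.788) over 33 libraries. Without libraries 4.1 and 1.2 their r was 0.841, 0.837 and 0.815. For Cdkn2a in cord they were Agpat2 (r = 0.763, rho = 0.667), Nradd (r = 0.713, rho = 0.672) and Col5a3 (r = 0.708, rho = 0.736). These are the top 3 among 10993 to 14186 genes whose log2 CPM averaged 1 or more, given as a description.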

How the data were processed

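Polyadenylated RNA of 97 libraries was analysed, each table column mapped to a sample by its label; 2 labelled quadriceps samples, exercised 10.2 and sedentary 10.4 of 18 months, were not analysed here. Per the labels, tissue was flash frozen, extracted with Trizol and made into TruSeq libraries. The authors deposited raw counts per gene and TPM values. STAR 2.5.2b and GRCm38.p5 are named in the submitters' processing notes; no counting program or strand setting is given in the sources used here. Deposited TPM describe levels and deposited counts enter all tests. A deposited FPKM table was left unused.

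Counts were tested in R 4.3.3 with edgeR 4.0.16 (quasi-likelihood F test, TMM factors, filterByExpr at a minimum count of 10 and minimum total of 15) per tissue over all 3 groups, over all 97 libraries for cord against muscle, and over the 64 muscle libraries for gastrocnemius against quadriceps. P-values were Benjamini-Hochberg adjusted over all genes tested, and a gene was called under 0.05. SE are the log2 fold change over the square root of F, and 95% intervals are 1.96 SE either way. Alternatives were DESeq2 1.42.0, limma 3.58.1 (voom with quality weights), RLE factors, no filter, fits of only the groups compared, a replicate block, leaving out each library, and leaving out those standing apart. Totals without TMM factors and the counts of other lists under alternatives were added after seeing the data. Correlations (Python 3.11.15, numpy 2.4.6, scipy 1.17.1; figures with matplotlib 3.10.9) used log2 CPM less group means and 100000 two-sided permutations within groups. Scripts were tested on simulated data. The genes and lists were chosen with earlier results of these data known. Named are the 9 genes in every comparison; from each other list up to 4 called genes by smallest p per tissue and comparison, plus those called in at least 2 of 9 comparisons; and the top 3 genes by r for like patterns. Further list genes (further called secretory factors, Ccl2 among them, Mmp9 and the genes given for library 3.1) were named after their values were seen. Some genes of the lists are not reported here. The ageing comparison is 18-month sedentary minus 10-month sedentary and the exercise comparison 18-month exercised minus 18-month sedentary; both use the 18-month sedentary libraries.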

Additional observations from a re-analysis of the deposited data

Results flagged for a closer look

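Dixon's criterion on CPM was applied to each of the 9 genes in each group of up to 10 libraries, 54 sets in all. In 15 sets 1 library stood far from the rest. For normal values chance gives about 1 in 20 sets, but these sets share libraries and some rest on few reads. Of the 15, 7 were the muscle libraries numbered 3.1 of 10 months. In quadriceps 3.1 had 75.73 CPM of Cdkn1a, where the next library had 17.41, 39.36 CPM of Cdkn1b (next 24.81), 78.52 CPM of Mdm2 (next 51.03) and 30.54 CPM of Trp53 (next 17.77). In gastrocnemius 3.1 had 35.13 CPM of Cdkn1b (next 27.41), 83.0 CPM of Mdm2 (next 64.31) and 31.28 CPM of Trp53 (next 18.11).

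The 18-month sedentary libraries numbered 5.2 were lowest in 3 sets, with 33.07 CPM of Ccng1 in cord (next 46.74), 28.44 CPM of Cdkn1b in cord (next 49.33) and 13.84 CPM of Cdkn1b in quadriceps (next 19.96). The other 5 were single cases. Quadriceps library 6.2 of 18 months sedentary had 17.42 CPM of Trp53 (next 15.5). Among 10-month libraries, cord 2.3 had 67.25 CPM of Ccng1 (next 59.4), cord 3.2 had 1.206 CPM of Cdkn2b (next 0.9927), quadriceps 2.2 had 0.5913 CPM of Cdkn2a (next 0.327) and gastrocnemius 2.1 had 0.4536 CPM of Gdf15 (next 0.1835).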

How the results depend on the processing

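For ageing and for exercised against 10 months, Cdkn2a in cord kept its direction in every alternative run, and its call in each that gave an adjusted p; DESeq2 gave none for ageing. Counts of called genes among the 8 tested moved as follows. With voom and quality weights 1 was called for exercised against 10-month gastrocnemius (Cdkn1b) and 2 for ageing in quadriceps (Cdkn2a, Cdkn1a), where edgeR called 0. For exercised against 10-month quadriceps 0 were called with only the groups compared and 0 without library 3.1, against 1. For ageing, cord minus muscles, 1 (Ccng1) was called with DESeq2, with totals only and with the replicate block (-0.32, adjusted p = 0.0122), against 0. Of the correlations between tissues 0 passed on log2 TPM and 1 without the libraries standing apart, against 5, and within tissues 1 without those libraries, against 4.

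These single-gene log2 fold changes turned sign, and the cause was not tested; those called among them were Cdkn1a for ageing in quadriceps with voom and, with totals only, Cdkn1a, Cdkn1b and Trp53 for cord minus muscles. With voom: Cdkn1a ageing gastrocnemius 0.27, ageing quadriceps 0.49 and exercised against 10 months quadriceps 0.19; Cdkn2a, Cdkn2c and Mdm2 exercised against 10 months gastrocnemius -0.12, 0.011 and 0.040; Mdm2 ageing quadriceps 0.0076; Ccng1 exercised against 10 months quadriceps -0.0056; Cdkn1b exercise cord -0.027. With DESeq2 Cdkn1a in quadriceps was 0.44 for ageing and 0.22 for exercised against 10 months. Without the libraries standing apart Cdkn1a was 0.20 for ageing in gastrocnemius, 0.48 in quadriceps, 0.25 for exercised against 10 months in quadriceps, -0.30 for ageing cord minus muscles and 0.050 for gastrocnemius minus quadriceps. In those fits Cdkn2c, Mdm2 and Ccng1 exercised against 10 months gastrocnemius were 0.040, 0.013 and -0.0048, Cdkn1b and Mdm2 ageing quadriceps 0.0070 and 0.012, Cdkn1b and Mdm2 exercise cord -0.029 and -0.0022, and Cdkn2c ageing cord minus muscles -0.011. With totals only, cord minus muscles was 0.094 for Cdkn2a, 0.675 for Cdkn1a, 1.08 for Cdkn1b and 0.667 for Trp53, Cdkn1a gastrocnemius minus quadriceps 0.037, and the exercise difference of the muscles 0.045 for Cdkn1a and 0.063 for Cdkn2c.

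The criterion used for pairing by number (over 0.1 in every pair) was not met between any tissues. Gene deviations of same-numbered libraries correlated above 0.1 in 28 of 31 pairs of muscles, 14 of 33 cord-gastrocnemius and 11 of 31 cord-quadriceps pairs. The muscles did resemble each other by number, with 23 of 31 best with their own number. Their median r was 0.268, against -0.000599 for different numbers. The reported fits of gastrocnemius against quadriceps nonetheless count these libraries as independent. With the replicate block Cdkn1a and Cdkn1b ageing cord minus muscles were -0.090 and -0.020 and Cdkn1a gastrocnemius minus quadriceps 0.012; Cdkn2a (-0.66, adjusted p = 0.00377) and Trp53 (0.12, adjusted p = 0.00613) were then called between the muscles, and Cdkn1a cord minus muscles was not (-0.23, adjusted p = 0.0739).

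Leaving out 1 library at a time, the called genes numbered 0 to 1 for ageing quadriceps and for exercised against 10 months quadriceps and 1 to 2 for ageing cord, where Mdm2 was called (-0.11, adjusted p = 0.0492) without the sedentary 18-month cord library with the most Mdm2 CPM. Signs turned in 14 of 72 gene results. Ageing in gastrocnemius ran from -0.156 to 0.156 for Cdkn1a and -0.015 to 0.093 for Mdm2; exercise there from -0.31 to 0.15 for Cdkn2a and -0.0028 to 0.047 for Cdkn1b; exercised against 10 months there from -0.052 to 0.014 for Cdkn2c and -0.072 to 0.036 for Mdm2. In quadriceps ageing ran from -0.13 to 0.016 for Cdkn2b, -0.080 to 0.48 for Cdkn1a, -0.155 to 0.0070 for Cdkn1b and -0.106 to 0.012 for Mdm2, exercise from -0.063 to 0.0066 for Ccng1, and exercised against 10 months from -0.31 to 0.25 for Cdkn1a. Exercise in cord ran from -0.12 to 0.093 for Cdkn2a and -0.035 to 0.047 for Cdkn1b.

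Over all genes, called counts moved by over 1.5 times in many fits, given here as higher plus lower. Ageing in cord gave 535 plus 480 as reported, 997 plus 1263 with voom, 759 plus 823 with DESeq2, 333 plus 207 with no filter, 205 plus 47 with only 2 groups and 291 plus 163 without libraries 5.2 and 6.1. Exercised against 10 months gave in cord 186 plus 100 as reported, 1214 plus 1440 with voom, 303 plus 189 with DESeq2, 338 plus 306 with only 2 groups and 357 plus 332 without those libraries; in quadriceps 852 plus 795 as reported, 1214 plus 1317 with voom and 660 plus 425 with only 2 groups; in gastrocnemius 515 plus 496 as reported, 936 plus 929 with voom, 305 plus 293 with no filter and 221 plus 150 with only 2 groups. Ageing gave 17 plus 6 in gastrocnemius and 36 plus 16 in quadriceps as reported, and 239 plus 242 and 456 plus 377 with voom; exercise gave 11 plus 5 and 88 plus 24 as reported, and 548 plus 519 and 380 plus 254 with voom. With DESeq2 ageing gave 45 plus 27 and 78 plus 44, and exercise 145 plus 53 and 151 plus 52; without the libraries standing apart these were 26 plus 23, 75 plus 38, 462 plus 224 and 228 plus 113. With only 2 groups ageing in quadriceps gave 13 plus 4 and exercise in gastrocnemius 132 plus 52, which was 19 plus 6 with RLE factors and 9 plus 1 with no filter. Cord minus muscles gave 213 plus 303 for ageing as reported, 527 plus 963 with the block, 441 plus 578 with DESeq2 and 92 plus 160 without the libraries standing apart, and for exercise 56 plus 119, 485 plus 382, 129 plus 342 and 25 plus 83. On totals alone these were 318 plus 111 for ageing and 17 plus 111 for exercise. Depth limits Cdkn2a and Gdf15, with a few reads in many libraries.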
